A study of Homo sapiens with 7 samples.

Results

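A set of 10 genes for secreted proteins of the extracellular matrix was followed in Daoy cells, an established human medulloblastoma line. The genes are TNC, TGFBI, FN1, SPARC, THBS1, THBS2, POSTN, FBN1, FBLN1 and LOX. They were taken as given by name, and a row of the deposited table belonged to one of them when its RefSeq accession mapped to that symbol. All 10 genes were found, on 14 of 24000 rows, among 17217 named genes. FN1 had 2 rows, FBLN1 had 4, and the other 8 genes had 1 each. LOX is an enzyme that acts on the matrix, and the other 9 are matrix glycoproteins.

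Total RNA was hybridised to 7 single-colour Cy3 arrays. The arrays came from 2 biological replicates of Daoy cells labelled wild-type and grown with fetal bovine serum, penicillin and streptomycin in a modified MEM medium, 3 arrays from replicate 1 (numbers 1, 2 and 4) and 4 from replicate 2 (numbers 1 to 4). Each replicate occupied a 4-plex array of its own, so culture and slide cannot be told apart, and a p-value here measures the spread between arrays of 2 extracts. Values are log2 intensities. Background was the 95th percentile over 364 olfactory receptor genes within each replicate, 7.79 in replicate 1 and 7.24 in replicate 2. An intensity also depends on how well a probe hybridises, so the place of a gene on the intensity scale is no measure of its transcript amount relative to another gene.

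Matrix glycoproteins form the scaffold on which cells sit and through which integrins signal. Fibronectin is assembled into fibrils by the cells that bind it, while tenascin-C, SPARC, the thrombospondins and periostin are matricellular proteins, which modulate adhesion more than they bear load. Tenascin-C is abundant in the developing brain and in the matrix of brain tumours, and TGFBI and periostin share a domain structure built of fasciclin repeats.

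The promoters of 7 of these genes are shown because they hold the paralog pairs THBS1 and THBS2 and TGFBI and POSTN, the bright genes TNC and FN1, and LOX. The stretches are from RefSeq, on GRCh38.p14, written 5′ to 3′ on the strand of the gene, and each ends at the base before the annotated start. Capitals mark matches to TATAAN (the core of a TATA box), TGANTCA (AP-1) and GGAATG (TEAD), on either strand. The first 4 stretches are 60 bases long. They lie at chr9:115118158-115118217 for TNC, chr5:136028928-136028987 for TGFBI, chr2:215436069-215436128 for FN1 and chr5:122078260-122078319 for LOX.
TNC: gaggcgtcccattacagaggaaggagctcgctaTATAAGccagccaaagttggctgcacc
TGFBI: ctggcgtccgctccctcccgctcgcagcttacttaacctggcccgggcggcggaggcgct
FN1: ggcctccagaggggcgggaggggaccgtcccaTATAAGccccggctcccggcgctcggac
LOX: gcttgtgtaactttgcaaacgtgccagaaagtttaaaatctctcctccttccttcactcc

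The next 3 are 250 bases long and lie at chr15:39580829-39581078 for THBS1, chr6:169253847-169254096 for THBS2 and chr13:37598769-37599018 for POSTN. They are given in full to show the whole stretch that was searched in both thrombospondin genes and in POSTN.
THBS1: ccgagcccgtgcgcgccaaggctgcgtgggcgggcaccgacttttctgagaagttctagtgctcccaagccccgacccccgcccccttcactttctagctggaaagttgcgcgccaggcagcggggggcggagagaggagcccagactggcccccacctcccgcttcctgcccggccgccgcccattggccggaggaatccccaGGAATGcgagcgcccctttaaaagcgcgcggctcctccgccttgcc
THBS2: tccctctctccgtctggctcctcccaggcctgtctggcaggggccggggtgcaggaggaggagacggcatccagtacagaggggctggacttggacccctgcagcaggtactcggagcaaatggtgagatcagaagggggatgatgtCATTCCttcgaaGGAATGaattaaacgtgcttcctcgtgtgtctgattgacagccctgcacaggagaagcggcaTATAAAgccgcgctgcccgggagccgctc
POSTN: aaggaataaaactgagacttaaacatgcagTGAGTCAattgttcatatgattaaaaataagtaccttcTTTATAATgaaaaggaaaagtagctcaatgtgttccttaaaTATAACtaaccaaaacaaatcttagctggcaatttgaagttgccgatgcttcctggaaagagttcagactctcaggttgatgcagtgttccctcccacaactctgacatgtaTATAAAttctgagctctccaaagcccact

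A TATAAN match on the strand of the gene between 40 and 21 bases before the start occurred in 4 of the 10 promoters and in 3.72% of 35116 RefSeq promoters. It began 27 bases before the start in TNC, 28 in FN1, and 29 in both THBS2 and POSTN. Neither TGFBI nor LOX nor THBS1 had one in that window, so the paralogs of each pair differed in this letter pattern. GGAATG stood in 4 of the 10 promoters (SPARC, THBS1, THBS2 and FBN1) and in 11.9% of all. THBS2 held it in both orientations, 103 to 98 and 91 to 86 bases before the start. TGANTCA stood only in POSTN among the 10, 220 to 214 bases before the start, and in 6.57% of all promoters. GGGCGG, the core of an SP1 site, was in 6 of 10 promoters against 42.6% of all. In POSTN the reverse-strand TATAAN match overlapped a forward one. The motifs were chosen with the sequences in view, the table can hold several starts for a gene, and a match of letters is not a measured site. The FBN1 start in the table lies 739 bases inside the annotated gene.

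TNC and TGFBI read near the upper limit of the intensity scale on every array. TNC (chromosome 9, 115019575 to 115118157, GRCh38.p14) encodes tenascin-C. Its log2 intensity was 15.01, 15.46 and 15.27 on arrays 1, 2 and 4 of replicate 1, and 15.03, 14.98, 15.10 and 14.97 on arrays 1 to 4 of replicate 2. The groups overlapped, and the level was 15.14 ± 0.16 (SD, n = 2). TGFBI (chromosome 5, 136028988 to 136063818), a secreted protein induced by TGF-beta, was at 15.46, 15.27 and 15.36 in replicate 1 and at 15.33, 15.16, 15.33 and 15.33 in replicate 2. These groups overlapped too, at a level of 15.33 ± 0.06 (SD, n = 2).

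In rank among the 24000 rows, TGFBI lay between 1 and 10 on the 7 arrays and TNC between 1 and 22. Each was the brightest row of 1 array, TGFBI on array 1 and TNC on array 2 of replicate 1. The arrays had been given the same set of values by quantile normalization, with a highest value of 15.46, so neither gene could read higher than that. The difference of replicate 2 minus replicate 1 was -0.23 ± 0.12 (SE) for TNC (limma, adjusted p = 0.134) and -0.08 ± 0.09 for TGFBI (adjusted p = 0.52), and neither passed the threshold of 0.05. Without array 1 of replicate 1, TNC differed by -0.35 and passed (limma over genes, adjusted p = 0.0294).

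**Figure D1:**
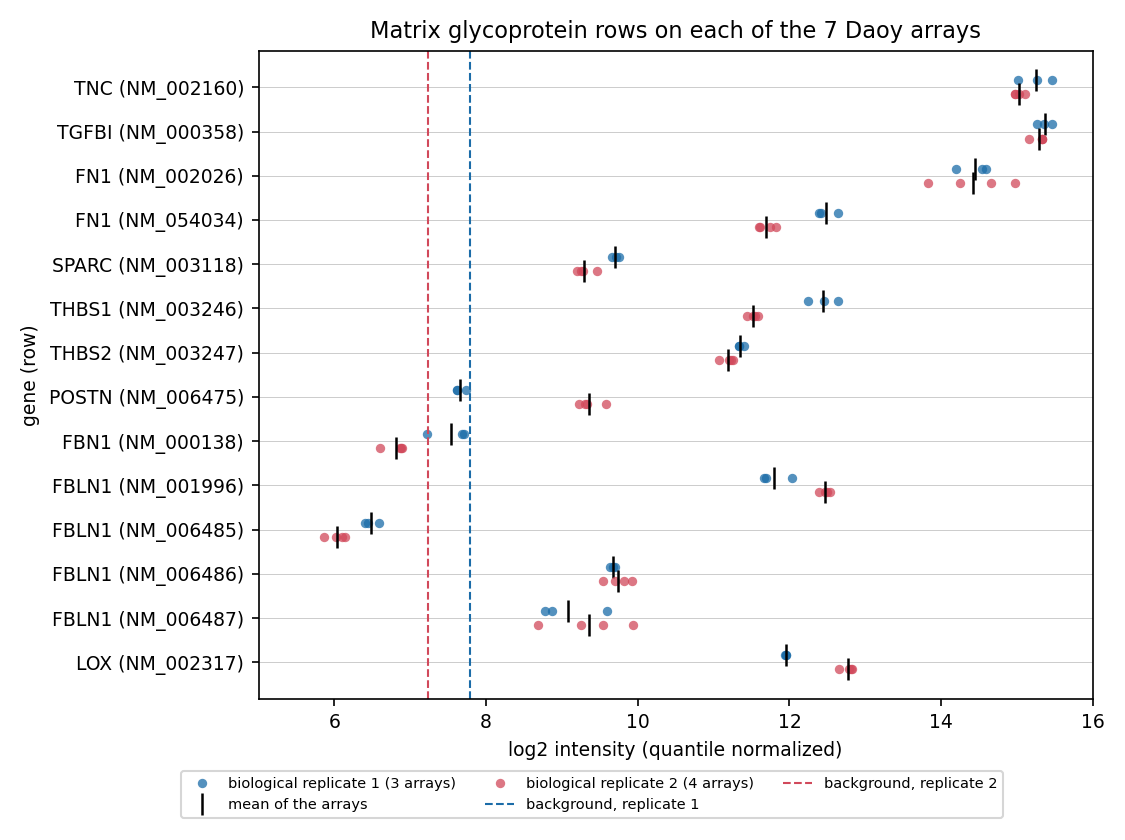
Log2 intensity (x axis) of the 14 rows of the 10 genes (y axis) on each array, blue for the 3 arrays of replicate 1 and red for the 4 of replicate 2, with black ticks for the means and dashed lines for the background of each replicate. TNC and TGFBI sit near 15, POSTN crosses from 7.66 to 9.36, and FBN1 and the FBLN1 row NM_006485 lie below background in both replicates.

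FN1 (chromosome 2, 215360865 to 215436068) encodes fibronectin, the fibril-forming ligand of integrin alpha5 beta1, and its 2 rows gave different pictures. The row NM_002026 was at 14.54, 14.20 and 14.59 in replicate 1 and at 14.25, 13.82, 14.65 and 14.98 in replicate 2. The replicates overlapped and had means of 14.44 and 14.43 (difference -0.02 ± 0.24, SE, limma, adjusted p = 0.958). Array 2 was the lowest in both replicates and array 4 the highest in both. The row NM_054034 was at 12.40, 12.64 and 12.41 in replicate 1 and at 11.75, 11.82, 11.61 and 11.62 in replicate 2. All 4 arrays of replicate 2 lay below all 3 of replicate 1, and this row fell by 0.79 (1.73-fold, SE 0.10, adjusted p = 0.000281).

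The gap between the FN1 rows within an array, NM_054034 minus NM_002026, was -2.14, -1.56 and -2.18 in replicate 1 and -2.50, -2.01, -3.05 and -3.36 in replicate 2. These gaps overlapped (two-sided exact permutation test over unpaired arrays, p = 0.171, 0.22 adjusted over the 9 pairs of rows compared). Between arrays of the same number the gap changed by -0.36, -0.45 and -1.19 for arrays 1, 2 and 4, all in 1 direction. A paired exact sign-flip test gave p = 0.25, the smallest that 3 pairs allow. Averaged over both rows, FN1 stood at 13.46 in replicate 1 and 13.06 in replicate 2, and fell by 0.40 (SE 0.12, limma over genes, adjusted p = 0.0184). That call ended without array 1 of replicate 1 (adjusted p = 0.0515), without array 4 of replicate 1 (adjusted p = 0.0563) and with the brighter row alone (adjusted p = 0.958). Which exons the probes of a row read is not given in the sources used here.

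FBLN1 (chromosome 22, 45502883 to 45601135) encodes fibulin-1, which binds fibronectin and is incorporated into elastic fibres. Its 4 rows did not move together. NM_001996 was at 11.70, 12.04 and 11.66 in replicate 1 and at 12.47, 12.54, 12.50 and 12.39 in replicate 2. The groups were apart, and the row rose by 0.68 (1.60-fold, SE 0.11, limma, adjusted p = 0.00101). NM_006486 overlapped, with 9.68, 9.63 and 9.71 in replicate 1 against 9.70, 9.92, 9.82 and 9.54 in replicate 2. Its difference was 0.07 ± 0.11 (SE, adjusted p = 0.603).

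NM_006487 spread widely within replicates, with 9.59, 8.78 and 8.86 in replicate 1 and 9.25, 8.69, 9.54 and 9.94 in replicate 2 (difference 0.28 ± 0.29, SE, adjusted p = 0.462). NM_006485 stayed below background, at means of 6.48 and 6.03, and no size is given. It passed the test as lower (adjusted p = 0.00541), but its mean minus background was -1.31 in replicate 1 and -1.21 in replicate 2. Averaged, FBLN1 was at 9.26 and 9.40 and did not pass (adjusted p = 0.241), whereas its brightest row did.

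The intensity of NM_001996 minus that of NM_006486 on the same array was 2.02, 2.40 and 1.96 in replicate 1 and 2.77, 2.62, 2.68 and 2.86 in replicate 2. The gap was wider by 0.60 in replicate 2 without overlap, a 1.52-fold rise in the ratio of the intensities. The exact permutation p was 0.0571, two-sided, the smallest that 3 against 4 arrays allow, and 0.103 adjusted over the 9 pairs of rows compared.

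**Figure D2:**
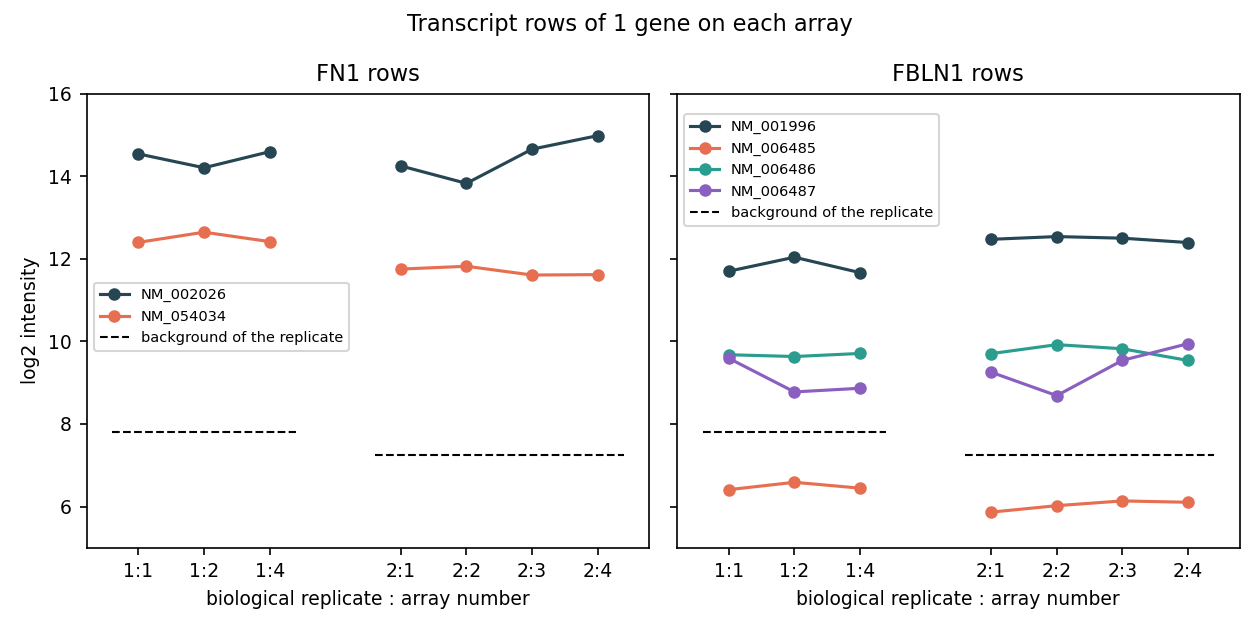
Log2 intensity (y axis) of the 2 FN1 rows and the 4 FBLN1 rows on each array (x axis, biological replicate and array number), 1 colour a row, with the background of each replicate dashed. The FN1 row NM_054034 is lower on all 4 arrays of replicate 2, and the FBLN1 row NM_001996 is higher on all 4.

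The thrombospondins are trimeric or pentameric glycoproteins, and THBS1 and THBS2, which form trimers, restrain blood vessel growth. THBS1 also activates latent TGF-beta. THBS1 (chromosome 15, 39581079 to 39599466) was at 12.24, 12.65 and 12.45 in replicate 1 and at 11.59, 11.45, 11.51 and 11.55 in replicate 2. Every array of replicate 2 was lower, and THBS1 fell by 0.92 (1.90-fold, SE 0.11, limma, adjusted p = 0.000169). THBS2 (chromosome 6, 169215785 to 169253846) was at 11.33, 11.33 and 11.40 against 11.25, 11.07, 11.23 and 11.20. Its groups did not overlap either, by a gap of 0.08. The difference of -0.17 ± 0.09 (SE) did not pass (adjusted p = 0.145).

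The intensity of THBS1 minus that of THBS2 on the same array was 0.91, 1.32 and 1.06 in replicate 1 and 0.34, 0.38, 0.29 and 0.35 in replicate 2. The gap changed by -0.755 with no overlap (two-sided exact permutation p = 0.0571, 0.103 adjusted over the 9 pairs). This is a 1.69-fold fall in the ratio of THBS1 to THBS2 intensity. A shift of a whole array cancels in this gap.

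POSTN (chromosome 13, 37562585 to 37598768) encodes periostin, a fasciclin-repeat protein that supports collagen cross-linking. It was at 7.62, 7.73 and 7.62 in replicate 1 and at 9.23, 9.33, 9.58 and 9.30 in replicate 2. The 3 arrays of replicate 1 lay below that replicate's background and the 4 of replicate 2 lay above theirs. POSTN was at least 2.96-fold higher in replicate 2, taken against the background of replicate 1. The test was passed (limma, adjusted p = 6.84e-06), and no exact size is given because replicate 1 has only a bound. The gap to its paralog TGFBI, the last of the 9 pairs, is not given as a size either, since POSTN was below background in replicate 1 and TGFBI read near the upper limit.

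LOX (chromosome 5, 122063195 to 122078259) encodes lysyl oxidase, the copper enzyme that cross-links collagen and elastin. It was at 11.94, 11.96 and 11.96 in replicate 1 and at 12.82, 12.81, 12.78 and 12.65 in replicate 2. All arrays of replicate 2 were higher, and LOX rose by 0.81 (1.76-fold, SE 0.09, limma, adjusted p = 8.53e-05). SPARC (chromosome 5, 151661096 to 151686915), a collagen-binding matricellular protein, was at 9.71, 9.66 and 9.75 against 9.20, 9.47, 9.28 and 9.25. The groups were apart, and SPARC fell by 0.41 (1.33-fold, SE 0.10, adjusted p = 0.00678).

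FBN1 (chromosome 15, 48408313 to 48645709), the main protein of elastic microfibrils, was at 7.71, 7.22 and 7.68 in replicate 1 and at 6.89, 6.88, 6.60 and 6.86 in replicate 2. Neither replicate mean reached background, and no fold is given, although FBN1 passed as lower (limma, adjusted p = 0.00226). The background itself was lower in replicate 2 (7.24 against 7.79). The FBN1 mean minus that background was -0.25 in replicate 1 and -0.43 in replicate 2, so the call does not show less transcript. Transcripts that every cell uses can read below background on these arrays, as the ribosomal protein gene RPL32 did (6.02 and 5.97), so the FBN1 value does not show that the transcript was missing.

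**Figure D3:**
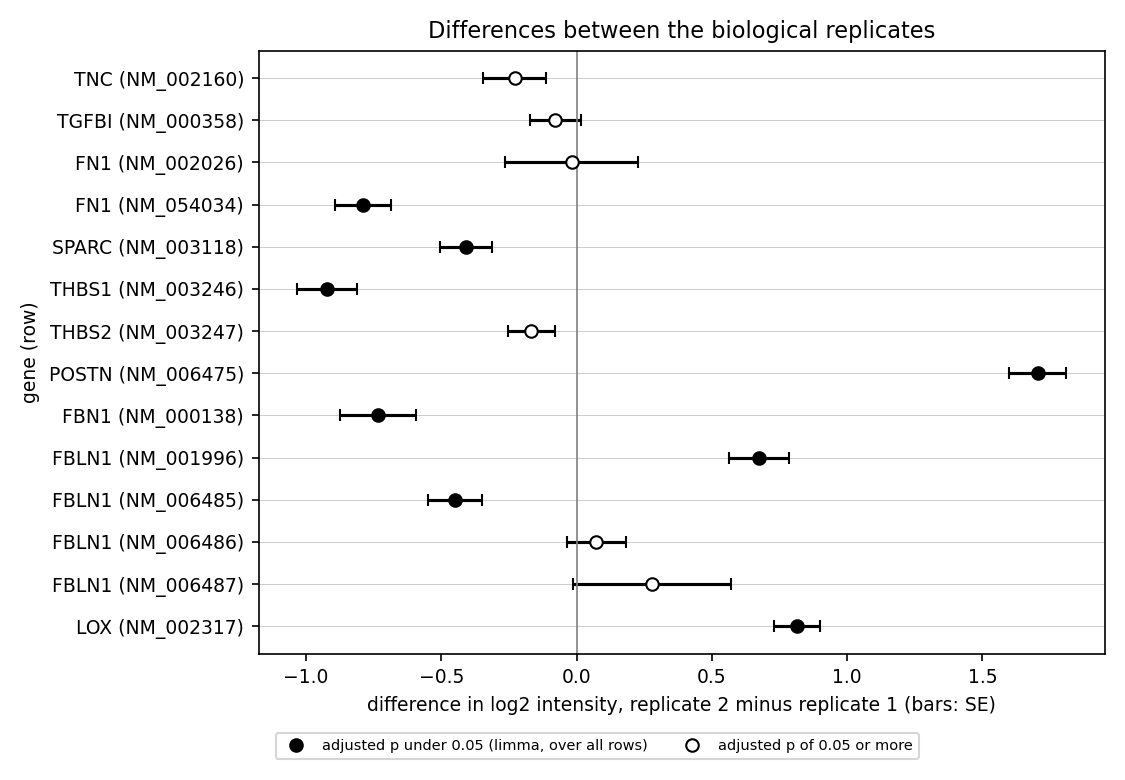
Difference in log2 intensity, replicate 2 minus replicate 1 (x axis, bars for the SE), for each of the 14 rows (y axis), filled where the adjusted p was under 0.05. POSTN, whose replicate 1 mean lies below background, is farthest to the right and THBS1 farthest to the left at -0.92, while both TNC and TGFBI are open points.

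Counted over genes, 8 of the 10 were above background in both replicates, against 56.3% of all named genes. In the fit over genes 6 of 10 passed, against 49.8% of all genes, so the share of these genes that differed was near that of the array as a whole. POSTN and LOX were higher (2 of 10, background 25.5%), and FN1, SPARC, THBS1 and FBN1 were lower (4 of 10, background 24.2%). Of these 4, 3 were above background in at least 1 replicate and FBN1 was not (all genes 2958 of 17217). POSTN alone also differed by at least 1, which 8.97% of all genes did. Counted over rows, 8 of 14 passed against 48.8%, and the arrays of the replicates were apart in 9 of 14 rows against 51.7%. The median difference of the 10 genes was -0.20, and that of all genes -0.01.

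The numbers of genes passing in each direction depend on the level taken as constant. A list of 30 cytosolic ribosomal protein genes had a median difference of 0.36, with 18 higher and 1 lower (all genes 25.5% and 24.2%). When the arrays were aligned on that list, the median of all genes moved to -0.36 and the share of passing genes that were higher fell from 51.3% to 17.2%. POSTN and LOX (0.46) remained higher under this alignment, and FN1, SPARC, THBS1 and FBN1 remained lower. TNC (-0.58), TGFBI (-0.43) and THBS2 (-0.52) then passed as lower (limma, adjusted p = 0.00233, 0.00278 and 0.000713), and the FBLN1 mean changed sign to -0.21 (adjusted p = 0.097). Each of these values has to be read against the median of -0.36. TNC and TGFBI also read near the upper limit shared by all arrays, which bounds their differences before alignment.

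The profiles nearest to those of the bright genes over the 7 arrays were sought among rows of other genes only. By root mean square distance of centred values, LRIF1 (0.0246), TUSC3 (0.0532) and ZNF3 (0.0533) were nearest to TNC, and NCL (0.0343), CRK (0.0345) and MCAM (0.0353) to TGFBI. For FN1 they were ENSA (0.113), HADHA (0.115) and SLBP (0.14) with the row NM_002026, and SLC43A3 (0.0266) and RMI2 (0.0563) were among those nearest to NM_054034. The 10829 named rows above background in both replicates had median distances between 0.273 and 0.449 from these rows. The 7 arrays share 2 extracts, so the distances rest on the difference between replicates and on array spread.

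Related genes were counted in lists, and no list's share was tested against that of all genes. Of 47 other matrix glycoproteins, 30 were above background in both replicates (all genes 56.3%), 10 passed as higher and 14 as lower (all genes 25.5% and 24.2%), with a median difference of 0.00. After alignment on ribosomal proteins the numbers were 4 and 29, against 1958 and 9397 of all 17217 genes. Before alignment, 7 of the 10 and 11 of the 14 were above background in at least 1 replicate (all genes 3464 and 2958 of 17217). EFEMP1, a fibulin of the same family as FBLN1, read 14.50 ± 0.08 (SD, n = 2), and MFAP5, a microfibril protein, was below background. SMOC1, of the SPARC family, rose by 0.99 (limma over genes, adjusted p = 9.01e-05), and EMILIN1, an elastic fibre glycoprotein, fell by 1.31 (adjusted p = 9.25e-06). In replicate 1 SMOC1 was only narrowly above background (mean 7.98, background 7.79), and array 4 of that replicate read 7.77.

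Lysyl oxidase relatives went in different directions. LOXL3 rose by 1.35, from 11.66 to 13.01 (limma over genes, adjusted p = 7.38e-06), as LOX did. LOXL4 fell by 1.09, from 9.13 to 8.03 (adjusted p = 0.000122). LOXL1 read 13.87 ± 0.05 (SD, n = 2) and did not pass (adjusted p = 0.589), and LOXL2 was below background in both replicates. In all 1 of 4 passed as higher and 2 as lower (all genes 25.5% and 24.2%), with a median difference of -0.18. The 2 lower include LOXL2, which was below background. After alignment on ribosomal proteins 1 and 3 passed, against 1958 and 9397 of all 17217 genes.

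Among 6 substrates of these enzymes, 1 passed as higher and 2 as lower (all genes 25.5% and 24.2%), with a median of -0.15. After alignment 1 and 4 passed, against 1958 and 9397 of all 17217 genes. The fibrillar collagen chain COL1A1 read 14.80 ± 0.08 (SD, n = 2). COL3A1 fell by 0.73 (limma over genes, adjusted p = 0.000634). ELN, the elastin gene, was below background in replicate 1 and at least 1.82-fold higher in replicate 2 (adjusted p = 4.64e-05).

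Of 9 proteases and enhancers that process the matrix, 3 passed as higher and 1 as lower (all genes 25.5% and 24.2%), with a median of 0.04. After alignment 0 and 4 passed, against 1958 and 9397 of all 17217 genes. PCOLCE, which enhances procollagen processing, read 14.78 ± 0.32 (SD, n = 2), and TLL1, a tolloid-like protease, was below background. ADAMTSL4, a fibrillin-binding protein, rose by 0.63 (limma over genes, adjusted p = 0.00206), but its adjusted p was 0.0687 after alignment. FURIN, a proprotein convertase, was at 10.07 and 9.73 (adjusted p = 0.0462), but the replicate block by array number put it past 0.05 (adjusted p = 0.0724), and so did leaving out any 1 of 6 arrays (highest adjusted p = 0.119).

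Of 16 receptors of these proteins, 7 passed as higher and 1 as lower (all genes 25.5% and 24.2%), with a median difference of 0.15. After alignment on ribosomal proteins the numbers were 5 and 7, against 1958 and 9397 of all 17217 genes. Alignment lowered every difference by the same amount, so the aligned median of -0.20 has to be read against -0.36 for all genes. ITGAV, the alpha subunit of the vitronectin receptor family, rose by 1.23 (limma over genes, adjusted p = 1.01e-05), and ITGB5, one of its partners, fell by 0.65 (adjusted p = 0.000948). ITGA5 of the fibronectin receptor read 12.86 ± 0.25 (SD, n = 2). It rose by 0.35 (adjusted p = 0.012), but its difference was 0.00 after alignment (adjusted p = 0.978). CD36, a thrombospondin receptor, was below background in both replicates.

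Of 13 proteoglycans, 4 passed as higher and 4 as lower (all genes 25.5% and 24.2%), with a median of -0.04. Of these, 3 higher and 2 lower were above background in at least 1 replicate (all genes 3464 and 2958 of 17217). After alignment 3 passed as higher and 9 as lower, against 1958 and 9397 of all 17217 genes. VCAN, the versican core protein, which binds tenascins and fibulins, read 12.39 ± 0.19 (SD, n = 2), and NCAN, the brain proteoglycan neurocan, was below background. LUM, the small leucine-rich proteoglycan lumican, was below background in replicate 1 and at least 1.56-fold higher in replicate 2 (limma over genes, adjusted p = 1.07e-05). BCAN, the brain proteoglycan brevican, fell by 0.46 (adjusted p = 0.00613).

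Of 15 TGF-beta ligands, receptors, mediators and targets, 5 passed as higher and 1 as lower (all genes 25.5% and 24.2%), with a median difference of 0.24. After alignment 3 and 4 passed, against 1958 and 9397 of all 17217 genes, with a median of -0.11 (all genes -0.36). TGFB1, the ligand, read 13.44 ± 0.38 (SD, n = 2), and the inhibitor SMAD7 was below background. SKIL, a feedback repressor of SMAD proteins, rose by 1.26 (limma over genes, adjusted p = 1.24e-05). The mediator SMAD4 was at 10.54 and 10.21 (adjusted p = 0.0341), and its call ended without any 1 of 5 arrays (highest adjusted p = 0.125).

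**Figure D4:**
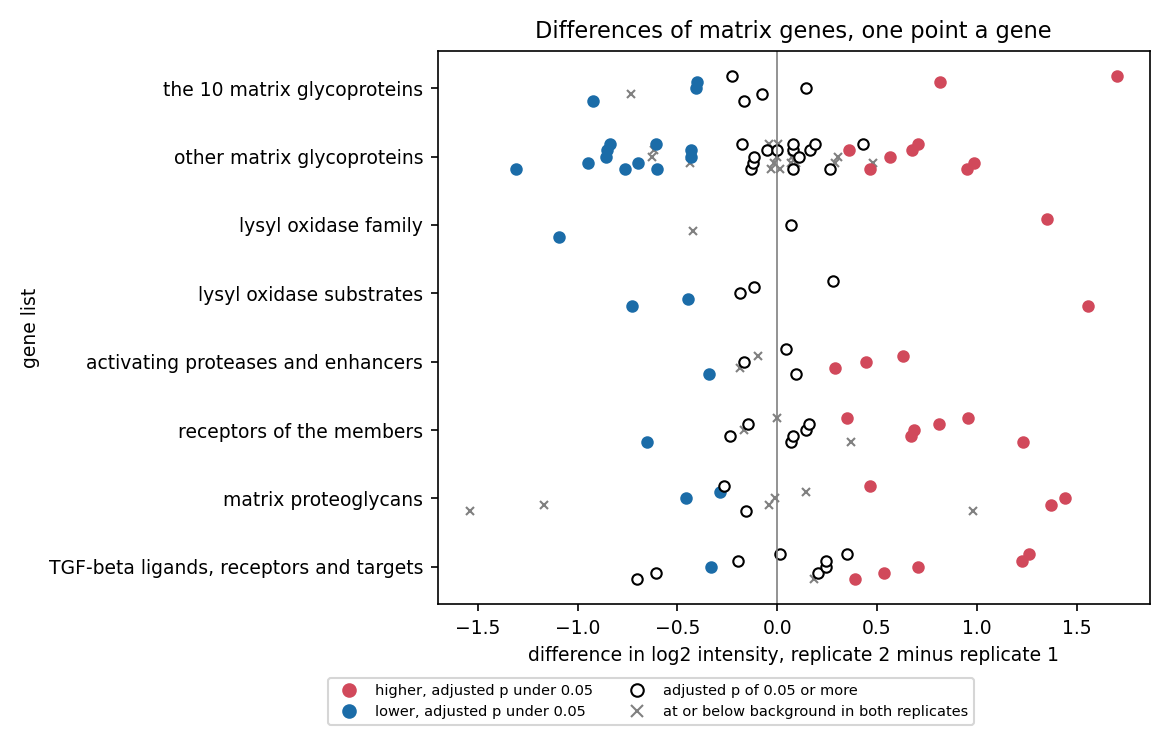
Difference in log2 intensity, replicate 2 minus replicate 1 (x axis), 1 point a gene, for the 10 genes and the 7 related lists (y axis), red and blue where the gene passed as higher or lower, open where it did not, and a grey cross where it was at or below background in both replicates. Every list holds points on both sides of 0, and 6 of the 16 receptor genes are red, since STAB1, which passed as higher, lay below background.

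The line was checked against neural and medulloblastoma markers and against other cell types. Of 11 neural and medulloblastoma markers, 2 passed as higher and 6 as lower (all genes 25.5% and 24.2%). Only 1 and 3 of these were above background in at least 1 replicate (all genes 3464 and 2958 of 17217). Of the 11, 5 were above background in both replicates (all genes 56.3%), among them the hedgehog receptor PTCH1 (12.22 ± 0.16, SD, n = 2). The stem cell factor SOX2 was another, but in replicate 1 only narrowly (mean 7.82, background 7.79). Its arrays 2 and 4 of replicate 1 read 7.76 and 7.72. The lineage factors ATOH1, OTX2 and ZIC1 were below background in both replicates, and so were MYCN, GLI1 and NES. TUBB3 rose by 0.40 and GLI2 fell by 0.62 (limma over genes, adjusted p = 0.0142 and 0.000738), the former not after alignment (adjusted p = 0.744) nor without array 1 of replicate 1 (adjusted p = 0.052). Of 9 leukocyte markers CD68 alone was above background (10.11 ± 0.41, up by 0.57, adjusted p = 0.00306, but 0.149 after alignment), and CD3D was not. Of 6 endothelial markers TEK was above background in both replicates (8.39 ± 0.03) and PECAM1 in replicate 2 only, at least 1.01-fold higher, and CDH5 in neither. Among ribosomal proteins RPS6 rose by 0.98 and RPL30 fell by 1.52.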

How the data were processed

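The deposited values are log2 intensities, 1 for each of 24000 rows on each of 7 arrays. The submitters' processing notes name RMA, which corrects background, normalizes by quantiles and summarises probes, and limma. The base of the logarithm was taken to be 2 by that convention, and the sorted deposited columns were equal within 0.002. No source used here names the probes, a genome build or detection calls. Rows were named by unversioned accession through the RefSeq gene table of GRCh38.p14, with 19125 rows matched to 1 symbol and 4875 to none. Rows of a gene were averaged.

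Replicate 2 was compared with replicate 1 over all rows and all named genes with limma 3.58.1 (lmFit, eBayes, Benjamini-Hochberg, threshold 0.05) in R 4.3.3, a step tested on simulated data. Levels are means of the 2 replicate means. The number of arrays limits the precision. Gaps between rows of 1 array were tested by exact permutation of the arrays and, added after seeing the data, by an exact sign-flip test over the arrays paired by number. Deviations of same-numbered arrays correlated across rows at 0.21, 0.35 and 0.40 for arrays 1, 2 and 4. Those of differently numbered arrays correlated at -0.38 to 0.20, the highest for array 4 of replicate 1 with array 3 of replicate 2. The numbers were taken to pair the arrays on this check and not on a label.

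The genes, lists and tests were chosen with earlier results of these data known. Named were all 10 genes, the highest, the lowest and the largest passing rise and fall of each list among genes above background in at least 1 replicate, and the 3 rows nearest in profile to TNC, TGFBI and FN1. SOX2, ATOH1, OTX2, MYCN, GLI1, NES and STAB1 were named after their values were seen. CD47 of the receptor list was not analysed here. Some items that this rule names are not reported here. Alternatives were the array block, leaving out each array, removal of dim genes, ribosomal alignment, an intensity trend, the brightest row, a required difference of 1 and a stricter background.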

Additional observations from a re-analysis of the deposited data

Results flagged for a closer look

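A single array lay apart from the other 3 of replicate 2 by Dixon's test at 95% in 2 of 16 groups examined, where chance gives about 1 in 20. TGFBI read 15.16 on array 2 and 15.33 on each of the other 3, which gave it rank 10 there and rank 4 on the others. Equal ranks carry equal values after quantile normalization. With the other 3 tied, any departure on array 2 would have been flagged, so the rate of 1 in 20 does not hold for TGFBI. FBN1, below background, read 6.60 on array 3 and 6.86 to 6.89 on the others. Replicate 1 has 3 arrays and was not examined this way.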

How the results depend on the processing

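Of 24000 rows 11701 passed, and of 17217 genes 8568. With the array number as a replicate block, 12919 rows, 9392 genes and the same number of the 10 matrix genes (6) passed, and no call of the 10 changed. Pairing arrays 1, 2 and 4 by number, chosen after seeing the data, left each of the 9 gaps between rows short of the threshold, which 3 pairs cannot reach (smallest p 0.25). Leaving out 1 array gave 9980 to 11084 rows, 7331 to 8130 genes and 5 to 6 of the 10, with 8 of 10 above background each time. When a difference of at least 1 was also required, 2453 rows, 1545 genes and 1 of the 10 were left, by construction. Ribosomal alignment raised the passing genes of the 10 from 6 to 9, and those of all 17217 genes from 8568 to 11355. No called difference of the 10 genes, or of the FN1 and FBLN1 rows, changed sign under the alternatives run. The required difference of at least 1 aside, the calls of POSTN, LOX, SPARC and THBS1 held under each of 12 alternatives. That of FBN1, which was below background in both replicates, held under the 11 that kept the gene. FN1 lost its call in 3, and the cause was not tested. Arrays without detection calls limit what can be said of POSTN in replicate 1 and of FBN1.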
